A study of Caenorhabditis elegans with 18 samples.

Results

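Young adult *C. elegans* fed on *Lactobacillus rhamnosus* CNCM I-3690 were compared here with worms fed on *Escherichia coli* OP50, the usual laboratory food and the control diet of the study, over 3 days of feeding. The members are the 3 arrays labelled with CNCM I-3690 and 3 days and the 3 arrays labelled with OP50 and 3 days, 6 of 18 arrays in all, with every probe set of the array. All worms were of the wild-type strain N2, so the groups share genotype and age and differ in the bacteria they ate. The other 12 arrays hold worms fed on a second *L. rhamnosus* strain, CNCM I-4317, for 3 days, and the 3 diets again at 10 days. Populations were synchronized from embryos of mothers kept on each diet, and whole worms were broken up for RNA, so that each array reads all tissues, the germ line and any embryos in the uterus together. In such samples, fewer cells of a type and less RNA per cell cannot be told apart. The labels do not say that the arrays of a group came from separate cultures, and the p-values then measure only the spread between these arrays, which may be technical.

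A hermaphrodite makes its sperm first, stores them, and then makes oocytes for the rest of its fertile life, so the balance of sperm RNA and oocyte RNA in a whole worm shifts as it passes into adulthood. Sperm RNAs include the many nearly identical major sperm protein genes. Oocytes are loaded with maternal RNAs for the eggshell and for the first divisions of the embryo. The intestine takes up the bacteria and makes the yolk and most digestive, antimicrobial and detoxifying proteins, and the skin makes the collagens of the cuticle.

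Each value is a log2 level, read by 1 probe set on 1 array and normalized by the authors, and each change is CNCM I-3690 minus OP50. The study's own list of this comparison carries the opposite sign. A probe set was called, and is said to have risen or fallen, at an adjusted p under 0.10 in limma, with Benjamini-Hochberg adjustment over all 22625 probe sets, and every adjusted p below comes from that test unless another comparison is named. Of these probe sets 1385 were called (6.12%), 871 higher (3.85%) and 514 lower (2.27%) on CNCM I-3690. Counted by gene, with the brightest probe set standing for each of 17118 genes, 709 rose (4.14%) and 410 fell (2.4%), and the median change of all genes was -0.04. In 5299 probe sets (23.4%), called or not, all 3 arrays of one diet lay above all 3 of the other, and this was so in 1289 of the 1385 calls. Rises were the larger changes: 336 calls were at 1 or more on the log2 scale and 29 at -1 or less. The share of calls that were higher was 62.9%, and it was 52.7% with each array centred on its median and 85.2% after cyclic loess between arrays, while the median change of all probe sets was -0.05, and -0.09 and 0.01 under those settings. None of 77 control probe sets was called. Of the calls, 109 had both group means at or below 1.32, the median of all values, where the arrays carry little signal over background and the size of a change is poorly measured.

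**Figure D1:**
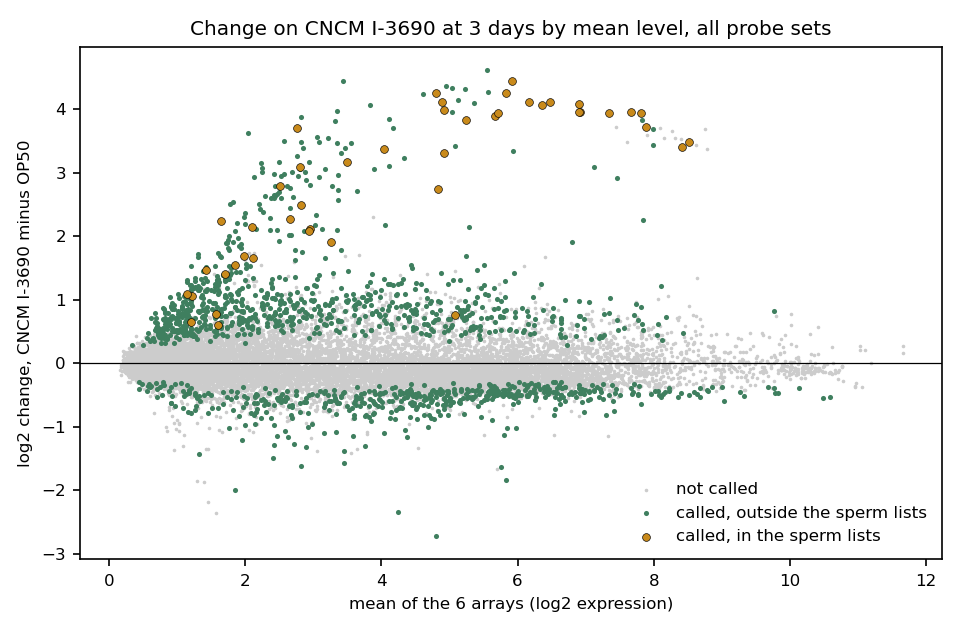
Change of each probe set at 3 days (vertical axis, log2, CNCM I-3690 minus OP50) against its mean over the 6 arrays (horizontal axis, log2 expression). Each point is 1 probe set: grey for those not called, green for called ones and amber for called members of the 3 lists of sperm genes. The rises reach further from 0 than the falls, and the called sperm genes run from small rises to some of the largest.

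The 3 CNCM I-3690 arrays were not alike. Replicate 3 was the one nearest to OP50 in 1199 of the 1385 calls (86.6%), against 84 and 102 for replicates 1 and 2. Over probe sets, which do not count as replicates, it correlated at 0.989 with the other arrays of its group and at 0.985 to 0.991 with the OP50 arrays. At most 0.0398% of values were identical between 2 arrays of CNCM I-3690 and 0.084% between 2 of OP50, so no array is a copy of another. The number of calls was 236, 284 and 2812 without CNCM I-3690 replicate 1, 2 and 3, and 1346, 462 and 574 without OP50 replicate 1, 2 and 3. A total of 211 probe sets, 193 higher and 18 lower, were called in the full fit and in all 6 fits without 1 array. These are called firm below. Of 289 genes with several probe sets and at least 1 call, 252 (87.2%) had all probe sets on the same side of 0, against 2143 of 2981 genes with several probe sets (71.9%), and 58 had at least 2 calls.

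Sperm genes had the largest median changes of the 71 gene lists examined. Of 23 major sperm protein genes, 18 rose and none fell (median change 3.94), and of 19 genes of small sperm protein families 18 rose (median 2.25), where 4.14% of all genes rose. A further 21 genes of sperm-enriched families, a list chosen after their values were seen, held 17 rises (median 2.94). The study's own table of this comparison had been read when the sperm lists were written, so their direction is not independent evidence. The mean of the major sperm protein genes was 9.34, 9.31 and 8.18 on the CNCM I-3690 arrays, against 6.05, 4.76 and 4.46 on the OP50 arrays, so that every CNCM I-3690 array lay above every OP50 array, replicate 3 of CNCM I-3690 was the lowest of its group and replicate 1 of OP50 the highest of its own.

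*msp-74*, a major sperm protein gene, was at 7.51, 7.41 and 6.57 on CNCM I-3690, against 4.29, 2.73 and 2.98 on OP50, a change of 3.83 (standard error 0.62, adjusted p = 0.00474). *msp-32*, of the same family, was at 7.13, 7.36 and 5.21 on CNCM I-3690, against 3.92, 3.12 and 2.74 on OP50, and changed by 3.30 (adjusted p = 0.00474). The major sperm proteins form the cytoskeleton with which nematode sperm crawl, and are also the signal by which sperm induce oocytes to mature. *nspd-1*, of a nematode-specific peptide family, was at 7.48, 7.40 and 5.95 on CNCM I-3690, against 2.65, 3.01 and 2.82 on OP50, a change of 4.12 (standard error 0.55, adjusted p = 0.00393). *gsp-3*, a sperm form of the catalytic subunit of protein phosphatase 1, was at 5.47, 5.46 and 2.89 on CNCM I-3690, against 0.97, 0.97 and 0.79 on OP50, a change of 3.69 (standard error 0.61, adjusted p = 0.00474), and its close relative *gsp-4* rose by 3.09 (adjusted p = 0.00671). As all 3 OP50 values of *gsp-3* lie below 1.32, the size of its change is poorly measured. In both phosphatase genes and in *nspd-1* the OP50 arrays lay close together, while CNCM I-3690 replicate 3 lay below replicates 1 and 2 and above all of OP50. *msd-4*, with a major sperm protein domain, rose by 4.34 (adjusted p = 0.00409), *nsph-3.1* by 3.97 (adjusted p = 0.00463), *msrp-2* by 3.46 (adjusted p = 0.00393), the sperm-specific *ssq-3* by 2.80 (adjusted p = 0.00501) and *gipc-1*, a homolog of a PDZ-domain adaptor, by 3.06 (adjusted p = 0.00455). The probe sets of all 23 major sperm protein genes, and of 11 of the 19 small sperm protein genes, have a letter in their name that marks possible binding to other members of the family, so values of single members cannot be told apart there.

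Genes known from mutants with defective sperm had a smaller median change. Of 37 spermatogenesis genes 8 rose (21.6%, against 4.14% of all genes) and none fell (median 0.14). The largest change among them was the 3.69 of *gsp-3*, and 18 of the 37 lay at or below the median of all values on both diets. *spe-18*, which sperm need to assemble their major sperm protein, was at 4.65, 4.58 and 2.76 on CNCM I-3690, against 1.81, 1.97 and 1.90 on OP50, a change of 2.10 (standard error 0.50, adjusted p = 0.0333). *spe-15*, a myosin that sorts components during sperm formation, rose by 0.78 (adjusted p = 0.0409), *spe-46* by 1.06 (adjusted p = 0.0316), and *spe-11*, whose product the sperm brings into the embryo, by 1.46 (adjusted p = 0.052). In each of these 4 genes replicate 3 was the lowest of the CNCM I-3690 arrays. Of 12 regulators that choose between sperm and oocyte fate, among them *fog-1*, *fog-3*, *fem-3* and *tra-2*, none was called by limma, with 5 at an unadjusted p under 0.05, and their median was -0.25. Of the 14 sperm genes named with a call, 4, 4 and 0 lost it without CNCM I-3690 replicate 1, 2 and 3, and 0, 4 and 2 without OP50 replicate 1, 2 and 3 (limma, adjusted p up to 0.271). The number of spermatogenesis genes that rose was 2, 2 and 13 without CNCM I-3690 replicate 1, 2 and 3, and 6, 2 and 5 without OP50 replicate 1, 2 and 3, and that of major sperm protein genes 10, 10 and 20 without CNCM I-3690 replicate 1, 2 and 3, and 18, 11 and 11 without OP50 replicate 1, 2 and 3.

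Single members of enzyme families also rose, with replicate 3 lowest on CNCM I-3690. This trait is not particular to them, as replicate 3 was nearest to OP50 in 86.6% of all calls. *cyc-2.2*, the second cytochrome c gene of the worm, was at 4.59, 4.63 and 2.23 on CNCM I-3690, against 0.88, 0.62 and 0.48 on OP50, a change of 3.15 (standard error 0.51, adjusted p = 0.00474). Among 47 genes of the respiratory chain and ATP synthase 3 rose (6.38%, against 4.14% of all genes, median 0.11, 0.27 after cyclic loess), and with it *ant-1.4*, an adenine nucleotide carrier of mitochondria, at 0.83 (adjusted p = 0.0481). *acdh-8*, an acyl-CoA dehydrogenase, was at 4.38, 4.55 and 2.59 on CNCM I-3690, against 1.15, 1.11 and 0.87 on OP50, a change of 2.79 (standard error 0.48, adjusted p = 0.00599). Among 65 genes of fatty acid breakdown 4 rose and 1 fell (6.15% and 1.54%, near the 4.14% and 2.4% of all genes). *sams-5*, an S-adenosylmethionine synthetase, rose by 1.39 (adjusted p = 0.0197) and was the one call among 21 genes of the methionine and folate cycle (4.76%). On OP50 these 4 genes lay at or below 1.32 on all 3 arrays, so that the size of their changes is poorly measured, and in each of them replicate 3 of CNCM I-3690 was below replicates 1 and 2. Without CNCM I-3690 replicate 1 the calls of 2 of the 4 ended, and likewise without replicate 2 (adjusted p up to 0.263), and *ant-1.4* also lost its call without OP50 replicate 2 or 3.

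The level of sperm genes thus moved both with the diet and with the array that stood apart. Averaged over 42 sperm genes, each taken relative to its mean over the 18 arrays, it was 2.88 for CNCM I-3690 and -0.28 for OP50 (log2, means of 3 arrays). With this mean as a term of the model, a fit chosen after the data were seen, limma called 0 probe sets, with 879 at an unadjusted p under 0.05, and the standard errors were 1.66 times larger at the median. The mean is made of major and small sperm protein genes, so a smaller change of such a gene was built into the fit. The mean also differed between the diets, so the fit cannot tell the diet and the sperm level apart. With the term, the fitted change of *msp-74* was 0.76, against 3.83 without it. That of *col-139* was 1.47, against 2.91, and that of *pos-1* -0.22, against -0.46. The fitted changes of some other genes were about as large or larger, as *cyp-35C1* (-1.05, against -1.14), *col-74* (-1.09, against -1.21), *pept-2* (0.91, against 0.86) and *irg-4* (-2.54, against -1.62). All of these genes are examples picked after the fit, and none was called in it. Whether genes differ in how much their change shrinks was not tested.

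Oocyte and eggshell genes lay below 0 in nearly all members, with small changes of which some passed. Of 19 oocyte RNA regulators 5 fell, none rose and all 19 were below 0 (median -0.35, -0.19 after cyclic loess), where 2.4% of all genes fell. Their mean was 7.34, 7.28 and 7.48 on the CNCM I-3690 arrays, against 7.70, 7.73 and 7.71 on the OP50 arrays, with no overlap between the diets. *pos-1*, *spn-4* and *mex-3* encode maternal RNA-binding proteins that set cell fates in the early embryo. *pos-1* was at 8.95, 8.96 and 9.23 on CNCM I-3690, against 9.45, 9.51 and 9.55 on OP50, a change of -0.46 (standard error 0.12, adjusted p = 0.0521). *spn-4* changed by -0.46 (adjusted p = 0.0576), *mex-3* by -0.44 (adjusted p = 0.0682) and *ify-1*, the securin that restrains separase until sister chromosomes part, by -0.38 (adjusted p = 0.0763). Of 26 eggshell and egg surface genes 6 fell and 2 rose (median -0.35, -0.21 after cyclic loess). *cpg-2*, a proteoglycan of the eggshell, was at 9.61, 9.52 and 9.66 on CNCM I-3690, against 10.00, 10.13 and 10.05 on OP50, a change of -0.47 (standard error 0.11, adjusted p = 0.0268). *cpg-8*, another proteoglycan gene, changed by -0.59 (adjusted p = 0.0378), and *egg-2*, a receptor-like protein of the oocyte surface needed for fertilization, by -0.44 (adjusted p = 0.0394). The 2 that rose were also *cpg* genes, *cpg-9* at 1.09 (adjusted p = 0.0297) and *cpg-22* at 0.72 (adjusted p = 0.0819).

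Of 26 genes of germ granules and meiotic prophase 2 fell (7.69%, against 2.4% of all genes): *deps-1*, a germ granule protein, changed by -0.34 (adjusted p = 0.0674) and the nanos homolog *nos-2* by -0.47 (adjusted p = 0.093). The 5 vitellogenin genes measured, which encode yolk and mark the adult hermaphrodite, were all below 0 (median -0.26, -0.13 after cyclic loess) and none was called by limma, with 3 at an unadjusted p under 0.05. *vit-4* was at 10.71, 10.84 and 10.79 on CNCM I-3690, against 11.14, 11.26 and 11.03 on OP50, a change of -0.36 (adjusted p = 0.103), and its groups did not overlap. Of the 11 oocyte, eggshell and germ granule genes named with a call, 11, 11 and 0 lost it without CNCM I-3690 replicate 1, 2 and 3, and 3, 11 and 9 without OP50 replicate 1, 2 and 3 (limma, adjusted p up to 0.405). The number of oocyte RNA regulators that fell was 0, 0 and 10 without CNCM I-3690 replicate 1, 2 and 3, and 3, 0 and 0 without OP50 replicate 1, 2 and 3.

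Genes of cell division, chromatin and the early embryo were also below 0 in most members, and some fell. All 39 genes of DNA replication and mitosis were below 0 (median -0.31, -0.15 after cyclic loess), and 4 fell (10.3%, against 2.4% of all genes): *mcm-7* and *mcm-2*, subunits of the replicative helicase, at -0.49 (adjusted p = 0.0656) and -0.35 (adjusted p = 0.0892), *orc-5* of the origin recognition complex at -0.37 (adjusted p = 0.0848) and the condensin subunit *hcp-6* at -0.57 (adjusted p = 0.0973). *mcm-7* was at 8.30, 8.28 and 8.61 on CNCM I-3690, against 8.78, 9.01 and 8.87 on OP50. Of 43 genes first transcribed in the early embryo 5 fell (11.6%) and none rose (median -0.14), and 27 of the 43 lay at or below 1.32 on both diets. *end-1*, a GATA factor that starts the endoderm, was at 2.14, 2.07 and 2.45 on CNCM I-3690, against 2.64, 3.15 and 2.70 on OP50, a change of -0.61 (standard error 0.16, adjusted p = 0.0558). *sdz-4* and *sdz-30*, which depend on the factor SKN-1 in the embryo, changed by -0.55 (adjusted p = 0.0218) and -1.03 (adjusted p = 0.0266). *vet-6*, one of the very early transcripts of the embryo, was at 2.27, 1.99 and 3.76 on CNCM I-3690, against 4.42, 4.11 and 4.2 on OP50, a change of -1.57 (standard error 0.37, adjusted p = 0.0327), and *vet-2* changed by -0.91 (adjusted p = 0.0677). These *vet* genes are not among the 43 but in a list of 3, chosen after their values were seen, of which 2 fell. In *vet-6* the OP50 arrays lay close together and replicate 3 of CNCM I-3690 lay just below them.

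Of 26 core histone genes 5 fell (19.2%, against 2.4% of all genes) and 2 rose (7.69%, against 4.14%) (median -0.32, -0.14 after cyclic loess). *his-62*, a histone H2B gene, changed by -0.66 (adjusted p = 0.0195) and *his-72*, a gene for the replacement histone H3.3, by -0.50 (adjusted p = 0.0289), while *his-70*, an H3.3-like gene, changed by 0.71 (adjusted p = 0.05). *hil-7*, a linker histone, was at 4.37, 4.42 and 5.94 on CNCM I-3690, against 7.42, 6.87 and 5.96 on OP50, a change of -1.84 (standard error 0.47, adjusted p = 0.0474). Of 9 linker histones, a list chosen after their values were seen, 1 fell. The lowest change in that list was -1.64, so the probe set of *hil-7* given here is not the one counted there. Among 19 Skp1-related genes, which encode an adaptor of ubiquitin ligases and were also listed after their values were seen, 6 fell and 1 rose (median -0.40, -0.25 after cyclic loess). *skr-9* was at 5.04, 4.63 and 6.04 on CNCM I-3690, against 6.35, 6.47 and 6.27 on OP50, a change of -1.13 (standard error 0.27, adjusted p = 0.0356), *skr-15* changed by -0.86 (adjusted p = 0.0148), and the one that rose was *skr-3* at 0.52 (adjusted p = 0.0564). Of 310 F-box genes, whose products bring substrates to such ligases, 9 fell and none rose (median -0.10), close to the 2.4% of all genes that fell, and 237 of the 310 lay at or below 1.32 on both diets. *fbxb-63* was at 1.12, 1.18 and 1.45 on CNCM I-3690, against 1.95, 1.88 and 2.06 on OP50, a change of -0.71 (standard error 0.14, adjusted p = 0.0126), and its call was firm. Of the 16 other genes named with a call in this and the preceding paragraph, 16, 14 and 0 lost it without CNCM I-3690 replicate 1, 2 and 3, and 5, 11 and 9 without OP50 replicate 1, 2 and 3 (limma, adjusted p up to 0.405). The number of DNA replication and mitosis genes that fell was 0, 0 and 16 without CNCM I-3690 replicate 1, 2 and 3, and 5, 0 and 0 without OP50 replicate 1, 2 and 3.

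**Figure D2:**
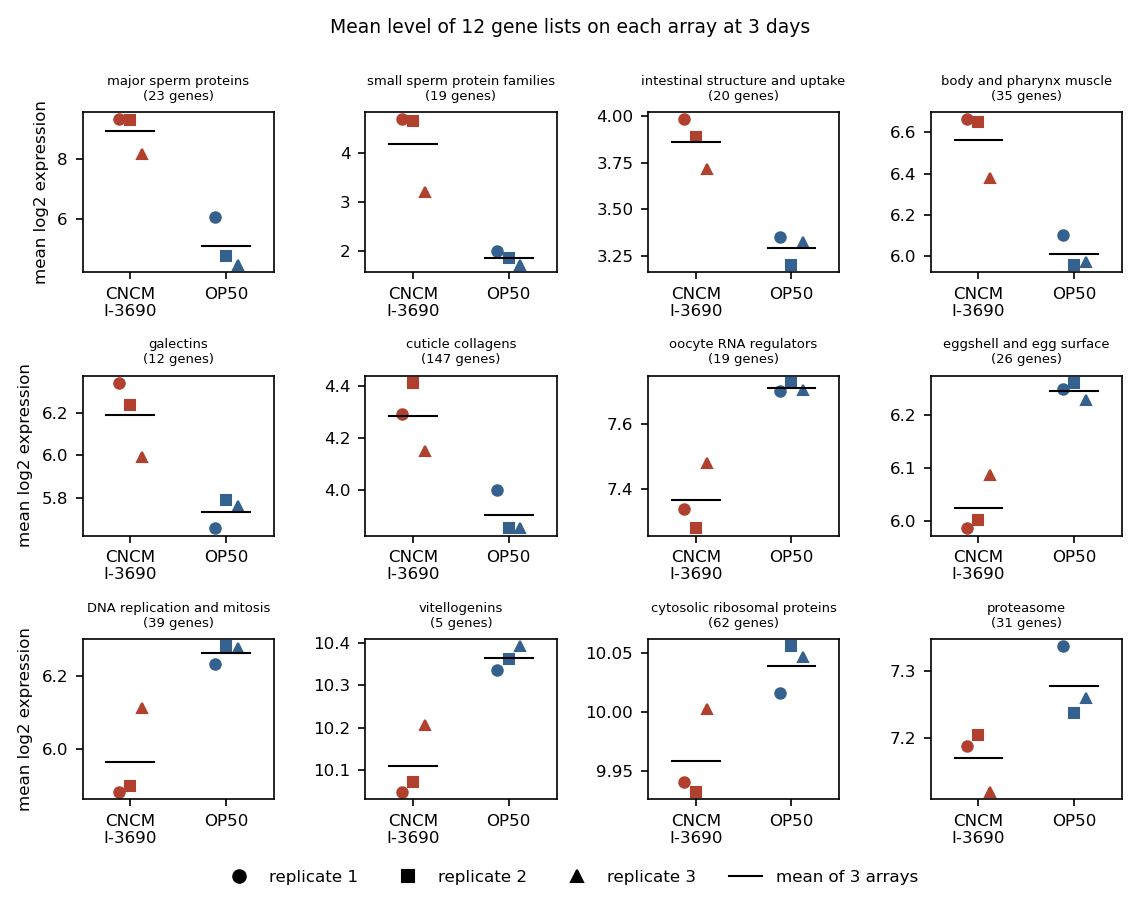
Mean log2 expression of the members of 12 gene lists on each array at 3 days, with CNCM I-3690 on the left and OP50 on the right of each panel. Symbols mark the replicate number, the bar is the mean of 3 arrays, and the vertical scale differs between panels and does not start at 0. In all 12 panels the diets do not overlap, and in all but that of the proteasome genes replicate 3 of CNCM I-3690 is the array of its group nearest to OP50. The 12 lists were picked from the 71 examined. In some lists not shown, such as the neuropeptides and the C-type lectins, the means of the diets overlap. The medians of the ribosomal and proteasome genes changed sign after cyclic loess.

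Outside the germ line, the collagens of the cuticle held the most rises of any list by count, though not by share. Of 147 genes 13 rose (8.84%) and 3 fell (2.04%), against 4.14% and 2.4% of all genes. Their median was 0.20, and 103 were above 0, against 40.6% of all genes. *col-139* was at 9.13, 9.12 and 8.52 on CNCM I-3690, against 6.62, 5.63 and 5.79 on OP50, a change of 2.91 (standard error 0.44, adjusted p = 0.00439). *col-142* was at 7.99, 7.86 and 7.40 on CNCM I-3690, against 6.23, 5.52 and 5.78 on OP50, a change of 1.91 (standard error 0.27, adjusted p = 0.00393). *col-149* changed by 2.11 (adjusted p = 0.00474) and *col-141* by 0.95 (adjusted p = 0.0188). *col-74* was 1 of the 3 that fell, at 1.31, 1.38 and 1.37 on CNCM I-3690, against 2.91, 2.68 and 2.10 on OP50, a change of -1.21 (standard error 0.20, adjusted p = 0.00474). The collagen farthest below 0 was *dpy-14*, named after its value was seen, at 2.16, 2.18 and 4.86 on CNCM I-3690, against 6.03, 5.39 and 4.81 on OP50, a change of -2.34 (standard error 0.70, adjusted p = 0.08). Its groups overlapped through CNCM I-3690 replicate 3, and its call ended without any of the other 5 arrays (adjusted p up to 0.34). *cut-3*, a cuticlin, was at 0.51, 0.51 and 0.78 on CNCM I-3690, against 3.00, 1.90 and 1.20 on OP50, a change of -1.43 (standard error 0.32, adjusted p = 0.0249), and was the only call among 75 genes of molting and of the apical matrix (median -0.08, -0.04 after cyclic loess).

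Of 81 hedgehog-related genes, which in nematodes are secreted mostly by skin, 2 rose and 2 fell (2.47% each), beside 4.14% and 2.4% of all genes. *grd-10* was at 5.36, 5.20 and 4.85 on CNCM I-3690, against 3.21, 2.73 and 2.96 on OP50, a change of 2.17 (standard error 0.53, adjusted p = 0.0379), and *grl-25* changed by -0.48 (adjusted p = 0.0146). Transthyretin-like genes, a family of secreted proteins, rose in 4 of 40 cases (10%), and 37 of the 40 were above 0 (median 0.24). *ttr-14* was at 4.70, 4.43 and 3.47 on CNCM I-3690, against 2.04, 1.61 and 1.96 on OP50, a change of 2.33 (standard error 0.32, adjusted p = 0.00393), and *ttr-27* changed by 1.08 (adjusted p = 0.0645). Of the 10 genes named with a call in this and the preceding paragraph apart from *dpy-14*, 3, 4 and 0 lost it without CNCM I-3690 replicate 1, 2 and 3, and 0, 2 and 2 without OP50 replicate 1, 2 and 3 (limma, adjusted p up to 0.285), and the calls of *col-139*, *col-142*, *col-149*, *col-74*, *grl-25* and *ttr-14* were firm. The number of collagens that rose was 5, 4 and 22 without CNCM I-3690 replicate 1, 2 and 3, and 10, 6 and 5 without OP50 replicate 1, 2 and 3.

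**Figure D3:**
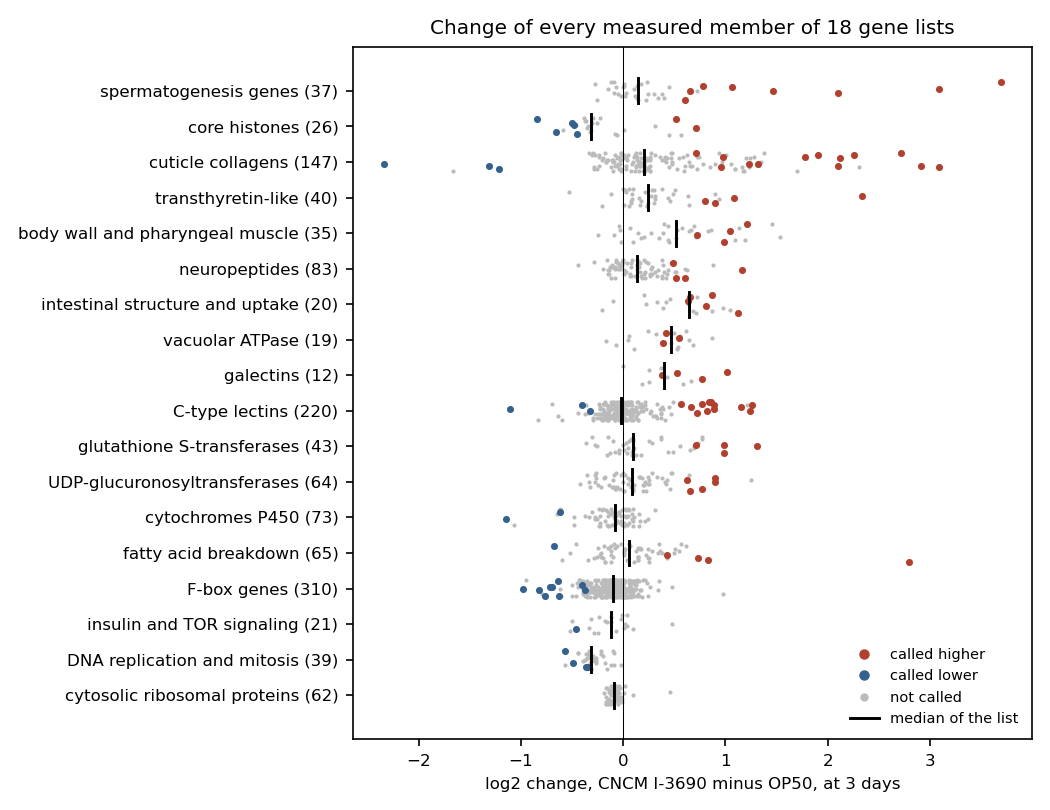
Log2 change at 3 days (horizontal axis, CNCM I-3690 minus OP50) of every measured member of 18 gene lists, 1 point per gene, with the number of genes in brackets. Red points were called higher, blue points called lower and grey points not called, and the black bar is the median of the list. The medians of the intestinal, muscle, vacuolar ATPase and galectin lists lie to the right of 0, those of the histone and replication lists to the left, and in the large families most points lie near 0.

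Genes of intestinal structure and uptake were higher in nearly all members. The 5 vitellogenin genes, whose yolk the intestine also makes, went the other way (median -0.26, none called). Of 20 genes of intestinal structure and uptake 5 rose (25%, against 4.14% of all genes) and none fell. Of the 20, 18 were above 0 (median 0.65, against -0.04 for all genes). Their mean was 3.98, 3.89 and 3.72 on the CNCM I-3690 arrays, against 3.35, 3.20 and 3.32 on the OP50 arrays, and the diets did not overlap. *pept-2*, an oligopeptide transporter, was at 3.23, 3.27 and 2.95 on CNCM I-3690, against 2.34, 2.15 and 2.38 on OP50, a change of 0.86 (standard error 0.16, adjusted p = 0.00777). *pbo-4*, the proton exchanger that intestinal cells use to signal to muscle in the defecation cycle, was at 2.97, 2.54 and 2.41 on CNCM I-3690, against 1.96, 1.88 and 2.17 on OP50, a change of 0.63 (standard error 0.16, adjusted p = 0.047), and *nlp-40*, a peptide that the intestine releases in the same cycle, changed by 0.52 (adjusted p = 0.016). *pgp-3*, a P-glycoprotein that exports toxins, changed by 0.65 (adjusted p = 0.0728), and this call ended in all 6 fits without 1 array. *mrp-3*, an exporter of another branch of the same transporter superfamily, was at 3.30, 3.20 and 3.01 on CNCM I-3690, against 1.98, 1.42 and 2.07 on OP50, a change of 1.35 (standard error 0.21, adjusted p = 0.00463). *haf-9*, needed to form lysosome-related organelles of the gut, changed by 1.23 (adjusted p = 0.047). Of 49 transporters of that superfamily 3 rose and 3 fell (6.12% each, against 4.14% and 2.4% of all genes).

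Of 19 subunits of the vacuolar ATPase, the proton pump of acidic organelles, 3 rose (15.8%, against 4.14% of all genes) and 17 were above 0 (median 0.47). *vha-14* was at 7.54, 7.34 and 7.36 on CNCM I-3690, against 7.06, 6.84 and 7.09 on OP50, a change of 0.42 (standard error 0.09, adjusted p = 0.0218), and *vha-12* changed by 0.55 (adjusted p = 0.0674) with groups that overlapped. Of 26 aspartyl and cathepsin B-like proteases 4 rose (15.4%, median 0.22). *cpr-8*, a cathepsin B-like protease, was at 4.34, 4.43 and 4.30 on CNCM I-3690, against 2.60, 3.71 and 3.48 on OP50, a change of 1.1 (standard error 0.30, adjusted p = 0.0575), and the cathepsin Z gene *cpz-2* changed by 0.69 (adjusted p = 0.0374). In *cpr-8* the 3 CNCM I-3690 arrays were nearly equal and the spread lay in OP50. *nas-20*, an astacin protease, changed by 0.93 (adjusted p = 0.0369), the only call among 33 astacins (3.03%, near the 4.14% of all genes). Of 25 innexins, the proteins of gap junctions in invertebrates, 3 rose and 1 fell (12% and 4%, against 4.14% and 2.4% of all genes). Among them *inx-17* was at 0.91 (adjusted p = 0.0219) and *inx-15* at 0.68 (adjusted p = 0.0806). Of the 13 genes named with a call in this and the preceding paragraph, 11, 8 and 1 lost it without CNCM I-3690 replicate 1, 2 and 3, and 4, 7 and 6 without OP50 replicate 1, 2 and 3 (limma, adjusted p up to 0.332), and those of *pept-2* and *mrp-3* were firm. The number of intestinal genes that rose was 3, 3 and 6 without CNCM I-3690 replicate 1, 2 and 3, and 4, 3 and 4 without OP50 replicate 1, 2 and 3.

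Muscle genes were higher in most members, though few passed. Of 35 genes of body wall and pharyngeal muscle 4 rose (11.4%, against 4.14% of all genes), none fell and 30 were above 0 (median 0.52). Their mean was 6.66, 6.65 and 6.38 on the CNCM I-3690 arrays, against 6.10, 5.96 and 5.97 on the OP50 arrays. *myo-3*, a myosin of body wall muscle, was at 4.40, 4.80 and 4.29 on CNCM I-3690, against 3.54, 3.34 and 3.48 on OP50, a change of 1.05 (standard error 0.33, adjusted p = 0.0934). *myo-2*, a myosin of the pharynx, changed by 1.21 (adjusted p = 0.0949), and the troponin I genes *tni-3* and *tni-4* by 0.72 (adjusted p = 0.0876) and 0.99 (adjusted p = 0.0747). Of 33 neuron markers 3 rose (9.09%): *bas-1*, the decarboxylase that makes dopamine and serotonin, at 0.97 (adjusted p = 0.0311), and the touch neuron genes *mec-17*, a tubulin acetyltransferase, at 0.66 (adjusted p = 0.0624) and *mec-12*, an alpha-tubulin, at 0.49 (adjusted p = 0.0732). The median of the neuron markers was 0.08. Of 83 neuropeptide genes 4 rose (4.82%, near the 4.14% of all genes) and none fell (median 0.13), among them *nlp-36* at 0.49 (adjusted p = 0.0442) and *nlp-26* at 1.16 (adjusted p = 0.0688). Of the 9 muscle and neuron genes named with a call, 9, 9 and 0 lost it without CNCM I-3690 replicate 1, 2 and 3, and 6, 9 and 8 without OP50 replicate 1, 2 and 3 (limma, adjusted p up to 0.353).

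Genes of defence against microbes gave calls scattered over large families. Of 220 C-type lectin genes 12 rose and 3 fell, 5.45% and 1.36%, near the 4.14% and 2.4% of all genes, the median was -0.02, and 167 of the 220 lay at or below 1.32 on both diets. *clec-85* was at 4.85, 4.87 and 4.43 on CNCM I-3690, against 3.44, 3.50 and 3.48 on OP50, a change of 1.24 (standard error 0.19, adjusted p = 0.00474). *clec-51* was at 5.10, 5.16 and 4.49 on CNCM I-3690, against 3.61, 3.58 and 3.79 on OP50, a change of 1.26 (standard error 0.21, adjusted p = 0.00567), and *clec-63* changed by 0.73 (adjusted p = 0.0127). These are genes for secreted proteins with a sugar-binding fold. In *clec-85* the 3 OP50 arrays were nearly equal. *clec-160* changed by 0.86 (adjusted p = 0.0217).

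Of 16 lysozyme genes 2 rose (12.5%, against 4.14% of all genes), *lys-1* at 0.68 (adjusted p = 0.065) and *lys-6* at 0.63 (adjusted p = 0.0835). *spp-23*, of the saposin-like family of pore-forming peptides, was at 5.8, 6.08 and 5.89 on CNCM I-3690, against 4.46, 5.12 and 5.05 on OP50, a change of 1.04 (standard error 0.30, adjusted p = 0.0734). Of 40 genes of antimicrobial peptide families 3 rose (7.5%), among them *fipr-21* at 0.93 (adjusted p = 0.0507). Of 85 genes known to respond to infection 3 rose and 2 fell (3.53% and 2.35%, near the 4.14% and 2.4% of all genes): *dod-19* changed by 1.25 (adjusted p = 0.0291) and *irg-8* by 0.99 (adjusted p = 0.0686), and *irg-4* was at 2.15, 2.01 and 1.86 on CNCM I-3690, against 3.74, 3.86 and 3.27 on OP50, a change of -1.62 (standard error 0.37, adjusted p = 0.0266). In *irg-4* the lowest of the 6 arrays was CNCM I-3690 replicate 3, the array that was nearest to OP50 in most calls. *hpo-42*, from a screen for sensitivity to a pore-forming toxin, was at 4.2, 4.25 and 4.32 on CNCM I-3690, against 4.86, 4.96 and 4.85 on OP50, a change of -0.64 (standard error 0.13, adjusted p = 0.0125).

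Of 12 galectins, lectins that bind beta-galactosides, 4 rose (33.3%, against 4.14% of all genes), none fell and 11 were above 0 (median 0.40). *lec-10* was at 8.22, 7.83 and 7.54 on CNCM I-3690, against 6.93, 6.61 and 6.99 on OP50, a change of 1.02 (standard error 0.29, adjusted p = 0.0674), and *lec-2* was at 8.08, 8.14 and 8.07 on CNCM I-3690, against 7.58, 7.43 and 7.70 on OP50, a change of 0.53 (standard error 0.14, adjusted p = 0.051). *lec-5* changed by 0.38 (adjusted p = 0.0619) and *lec-11* by 0.77 (adjusted p = 0.0394), the last with overlapping groups. The other 8 were not called, and 7 of them were above 0, up to 0.67 for *lec-3*. *skpo-3*, a heme peroxidase of the family that acts in cuticle and in defence, was read by a pair of probe sets, at 2.40, 2.15 and 2.18 on CNCM I-3690, against 0.97, 0.88 and 0.98 on OP50 for the one with the lower p (change 1.30 (adjusted p = 0.00339)), and it was the only call among 7 heme peroxidases. Of the 16 other defence and galectin genes named with a call in these 3 paragraphs, 13, 10 and 0 lost it without CNCM I-3690 replicate 1, 2 and 3, and 6, 9 and 8 without OP50 replicate 1, 2 and 3 (limma, adjusted p up to 0.311), and those of *clec-85*, *clec-51* and *hpo-42* were firm. The number of galectins that rose was 0, 0 and 6 without CNCM I-3690 replicate 1, 2 and 3, and 1, 1 and 1 without OP50 replicate 1, 2 and 3.

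**Figure D4:**
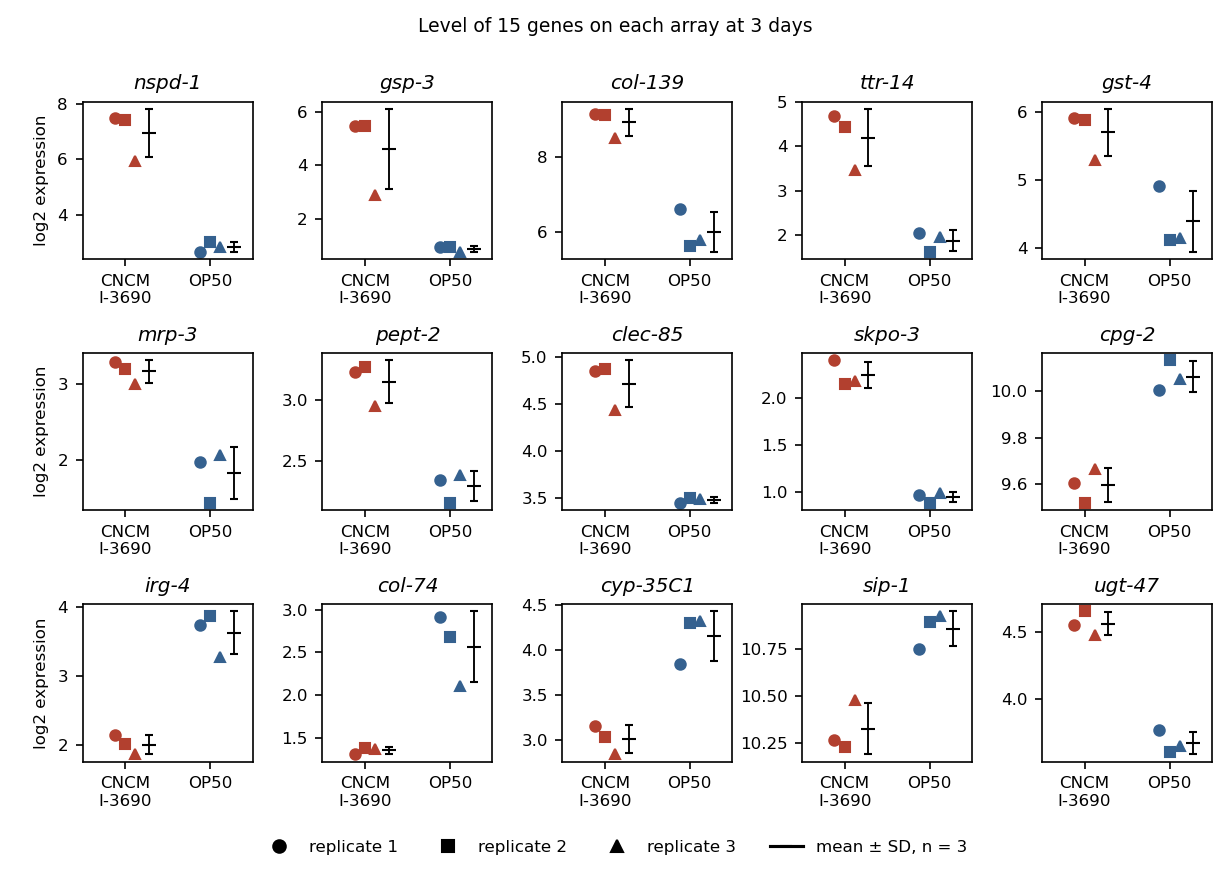
Log2 expression of 15 genes on each array at 3 days, with CNCM I-3690 on the left and OP50 on the right of each panel. Symbols mark the replicate number, the bar beside them is the mean with its SD (n = 3), and the vertical scale differs between panels and does not start at 0. In all 15 panels the 3 arrays of one diet lie above the 3 of the other. The genes were picked from those called, and 1289 of the 1385 calls do not overlap, so this separation follows largely from the choice. In *irg-4*, *cyp-35C1*, *col-74* and *skpo-3* replicate 3 of CNCM I-3690 is not the array of its group nearest to OP50.

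Genes of detoxification gave few calls by count, with shares that differed between families, where 4.14% of all genes rose and 2.4% fell. *gst-4*, a glutathione S-transferase and the standard reporter of the oxidative stress factor SKN-1, was at 5.92, 5.89 and 5.31 on CNCM I-3690, against 4.92, 4.12 and 4.15 on OP50, a change of 1.31 (standard error 0.25, adjusted p = 0.0116). Of 43 glutathione S-transferases 4 rose (9.3%) and none fell (median 0.09), with *gst-28* at 0.99 (adjusted p = 0.0361) and *gst-13* at 0.98 (adjusted p = 0.0465). Of 64 UDP-glucuronosyltransferases, which couple toxins to sugars, 5 rose (7.81%) and none fell (median 0.08). *ugt-47* was at 4.55, 4.66 and 4.48 on CNCM I-3690, against 3.76, 3.60 and 3.65 on OP50, a change of 0.89 (standard error 0.17, adjusted p = 0.0109), and *ugt-23* was at 5.06, 5.10 and 4.80 on CNCM I-3690, against 4.32, 4.47 and 4.30 on OP50, a change of 0.62 (standard error 0.12, adjusted p = 0.0114). *dhs-7*, a short-chain dehydrogenase, changed by 0.83 (adjusted p = 0.0126). Of 73 cytochromes P450, which oxidize foreign compounds, none rose and 2 fell, a share of 2.74% (median -0.08, -0.05 after cyclic loess). *cyp-35C1* was at 3.16, 3.04 and 2.84 on CNCM I-3690, against 3.84, 4.30 and 4.32 on OP50, a change of -1.14 (standard error 0.17, adjusted p = 0.00417), and a second probe set of the gene changed by -0.73 (adjusted p = 0.0289). *cyp-13B1* changed by -0.62 (adjusted p = 0.0862). Beside *gst-4* only 1 of 15 listed SKN-1 targets rose (*gst-13*), and the median of the 15 was 0.20.

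Stress proteins showed no common direction. Of 12 small heat shock protein genes 2 rose and 1 fell (16.7% and 8.33%, against 4.14% and 2.4% of all genes). *sip-1*, a small heat shock protein of embryos, was at 10.27, 10.23 and 10.48 on CNCM I-3690, against 10.75, 10.89 and 10.93 on OP50, a change of -0.53 (standard error 0.11, adjusted p = 0.0146), and *hsp-25* changed by 0.75 (adjusted p = 0.0255). The heat-induced *hsp-16.2* and *hsp-16.41* were at -0.20 (adjusted p = 0.939) and 0.03 (adjusted p = 0.992), with standard errors of 0.86 and 0.82, so only large changes of these genes could have passed. Of 5 mitochondrial chaperones and proteases none was called by limma and 1 was at an unadjusted p under 0.05, with *hsp-6* at 0.12 (adjusted p = 0.809) and *hsp-60* at 0.27 (adjusted p = 0.366). Of 32 antioxidant enzymes 1 rose (3.12%), the glutathione peroxidase *gpx-3* at 1.02 (adjusted p = 0.0982). Of the 11 genes named with a call in this and the preceding paragraph, 5, 5 and 0 lost it without CNCM I-3690 replicate 1, 2 and 3, and 2, 4 and 3 without OP50 replicate 1, 2 and 3 (limma, adjusted p up to 0.415), and those of *gst-4*, *ugt-47*, *ugt-23*, *dhs-7*, *cyp-35C1* and *sip-1* were firm.

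Insulin signaling sets fat storage, stress resistance and lifespan in the worm by holding the factor DAF-16 out of the nucleus. Of 21 genes of insulin and TOR signaling 1 fell (4.76%, against 2.4% of all genes) and none rose (median -0.12, and -0.01 after cyclic loess). *rict-1*, the Rictor subunit of TOR complex 2, was at 4.85, 4.79 and 4.86 on CNCM I-3690, against 5.22, 5.50 and 5.17 on OP50, a change of -0.46 (standard error 0.12, adjusted p = 0.0529), and *ins-34*, 1 of 24 insulin-like peptide genes, changed by -0.59 (adjusted p = 0.0891). Of 22 genes that DAF-16 induces 1 rose and 1 fell, 4.55% each (median -0.03, and 0.06 after cyclic loess). Of 22 that it represses 3 rose, 13.6% against 4.14% of all genes (median 0.04, and -0.01 with centred arrays). *sma-4*, a Smad of the body size pathway, changed by 0.84 (adjusted p = 0.0594). Of 255 nuclear hormone receptor genes 2 rose and 2 fell (0.784% each), below the 4.14% and 2.4% of all genes. Among them were *nhr-31* at 0.67 (adjusted p = 0.0409) and *nhr-25*, which acts in molting and in the skin, at -0.79 (adjusted p = 0.0381).

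Fat genes gave few calls by count, where 4.14% of all genes rose and 2.4% fell. *fat-6*, a stearoyl-CoA desaturase, was at 8.10, 7.84 and 7.26 on CNCM I-3690, against 6.90, 7.04 and 6.91 on OP50, a change of 0.79 (standard error 0.22, adjusted p = 0.066), the only call (5.56%) among 18 desaturases and elongases (median 0.16, 0.30 after cyclic loess). Its paralog *fat-7* was at 7.0, 7.28 and 6.22 on CNCM I-3690, against 6.13, 6.13 and 6.50 on OP50, a change of 0.58 (adjusted p = 0.44) that was not called. *lbp-7* and *lbp-5*, which carry fatty acids within cells, changed by 1.22 (adjusted p = 0.0527) and 1.07 (adjusted p = 0.047), the 2 calls (11.8%) among 17 lipid and retinol binding genes. The lipase *lips-17* changed by 0.85 (adjusted p = 0.0435) and *acl-12*, of an acyltransferase family, by 1.02 (adjusted p = 0.0372). *acox-3*, a peroxisomal acyl-CoA oxidase, was at 3.52, 3.59 and 3.35 on CNCM I-3690, against 4.37, 4.43 and 3.68 on OP50, a change of -0.68 (standard error 0.20, adjusted p = 0.076). Of 12 genes of propionate breakdown, a pathway that responds to the vitamin B12 of the bacteria, 11 were above 0 but none was called by limma, with 1 at an unadjusted p under 0.05 (median 0.09, 0.25 after cyclic loess), and *acdh-1* was at 0.17 (adjusted p = 0.901). Of the 11 genes named with a call in this and the preceding paragraph, 11, 10 and 1 lost it without CNCM I-3690 replicate 1, 2 and 3, and 5, 10 and 6 without OP50 replicate 1, 2 and 3 (limma, adjusted p up to 0.329).

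Several groups of housekeeping genes held no call by limma. Of 62 cytosolic ribosomal protein genes 0 were at an unadjusted p under 0.05, and 58 were below 0, with a median of -0.09 that was 0.04 after cyclic loess between arrays. Of 31 proteasome genes 4 were at an unadjusted p under 0.05 (median -0.12, and 0.05 after cyclic loess). The corresponding counts were 6 of 40 translation factors, 5 of 41 genes of the nucleolus and ribosome biogenesis, 1 of 18 cytosolic chaperones and 3 of 22 chaperones of the endoplasmic reticulum, where 4171 of all 22625 probe sets were at an unadjusted p under 0.05. Of the 71 lists, 25 had a median that changed sign after centring or cyclic loess, all of them at 0.12 or less in size.

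Among the largest falls outside these lists, *mtre-1* was at 0.84, 0.83 and 0.89 on CNCM I-3690, against 3.89, 2.87 and 1.80 on OP50, a change of -2.0 (standard error 0.52, adjusted p = 0.0474), with 3 nearly equal CNCM I-3690 arrays below 1.32 and a wide spread on OP50. *sepa-1*, a receptor that sends germ granule proteins to autophagy in embryos, was at 3.47, 3.34 and 4.59 on CNCM I-3690, against 4.94, 4.93 and 5.04 on OP50, a change of -1.17 (standard error 0.26, adjusted p = 0.0264). *scl-2*, a secreted protein of the SCP family, changed by -1.27 (adjusted p = 0.062). *F45D3.4*, *Y71A12B.11* and *F56A8.8* changed by -1.39 (adjusted p = 0.0288), -1.29 (adjusted p = 0.0222) and -1.14 (adjusted p = 0.0394). Of these 6 calls, 5, 6 and 0 ended without CNCM I-3690 replicate 1, 2 and 3, and 1, 4 and 2 without OP50 replicate 1, 2 and 3 (limma, adjusted p up to 0.271). Beside *col-74*, *cyp-35C1*, *fbxb-63*, *hpo-42*, *sip-1* and *grl-25*, the 18 firm falls included the ribosome-bound noncoding RNA *tts-1*, at 3.28, 2.97 and 4.06 on CNCM I-3690, against 4.68, 7.11 and 6.67 on OP50.

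*C06A12.3* was at 5.19, 5.20 and 5.05 on CNCM I-3690, against 4.19, 4.47 and 4.36 on OP50, a change of 0.81 (standard error 0.12, adjusted p = 0.00398). *mctp-1*, a membrane protein with C2 domains, was at 2.04, 2.15 and 1.96 on CNCM I-3690, against 1.13, 1.11 and 1.49 on OP50, a change of 0.81 (standard error 0.13, adjusted p = 0.00501), and *ZK593.3* was at 6.53, 6.43 and 6.04 on CNCM I-3690, against 5.30, 5.21 and 5.37 on OP50, a change of 1.04 (standard error 0.19, adjusted p = 0.00769). The calls of these 3 genes were firm. They are among those the study named for the contrast of the *L. rhamnosus* strains, so their choice is not independent of the values. On CNCM I-4317, compared with the same OP50 arrays, they changed by 0.11, 0.11 and -0.21 (adjusted p = 0.822, 0.853 and 0.772).

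The CNCM I-4317 worms of 3 days give each gene a second value against the same OP50 arrays, so the comparisons share those arrays. There 26 probe sets were called (0.115%), and 27 (0.119%) in the direct contrast of CNCM I-3690 with CNCM I-4317. *nspd-1* changed by 2.85 on CNCM I-4317 (adjusted p = 0.0931), *msp-74* by 3.17 (adjusted p = 0.0931), *col-142* by 1.52 (adjusted p = 0.0748) and *col-149* by 1.80 (adjusted p = 0.0763), so these genes were called on both *L. rhamnosus* strains. Of the lists of sperm genes, 1 of 23 major sperm protein genes and 1 of 19 genes of the small families were called on CNCM I-4317, where their medians were 3.07 and 1.32. *lec-11* was at -0.66 on CNCM I-4317, and the difference between the *L. rhamnosus* strains was 1.43 (adjusted p = 0.0287). *acl-12* was at -0.30 there, with a difference between the strains of 1.32 (adjusted p = 0.0779). *clec-160* and *cpg-9* were at -0.01 and 0.05 on CNCM I-4317, and their differences between the strains of 0.86 and 1.04 were not called (adjusted p = 0.148 and 0.236). *cyp-35C1* was at -0.30 on CNCM I-4317, and its difference of -0.85 was not called either (adjusted p = 0.113).

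The change on CNCM I-3690 at 10 days was set against that at 3 days by a contrast of the same model. Of all probe sets 183 differed (0.809%), 74 with a more positive change at 10 days and 109 with a more negative one, and 136 of them were also called at 3 days. Their number was 25, 26 and 1119 without CNCM I-3690 replicate 1, 2 and 3 of day 3, and 165, 36 and 49 without OP50 replicate 1, 2 and 3 of day 3. At 10 days 122 probe sets were called (0.539%). Of the 16 called at both times 11 had the same sign. *gst-4* was one of these, at 1.24 at 10 days (adjusted p = 0.0486), and *cpr-8* another, at 2.32 (adjusted p = 0.00144). *cyp-35C1* turned round, since at 10 days its level averaged 5.96 ± 0.20 on CNCM I-3690 and 4.60 ± 0.29 on OP50 (SD, n = 3 each), a change of 1.36 (limma, adjusted p = 0.00123), and the difference from the change at 3 days was 2.50 (standard error 0.24, adjusted p = 0.000201). *ugt-23* turned round in the other direction, to -0.67 at 10 days (adjusted p = 0.024), a difference of -1.29 (adjusted p = 0.00307).

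Of the genes named above, *skpo-3* was at 0.13 at 10 days, a difference of -1.17 (adjusted p = 0.032), *clec-85* at -0.37, a difference of -1.61 (adjusted p = 0.0252), and *mrp-3* at -0.01, a difference of -1.36 (adjusted p = 0.0773). The eggshell gene *cpg-2* and the oocyte gene *pos-1* were at 0.05 and 0.06 at 10 days, and their differences from 3 days were 0.52 and 0.51 (adjusted p = 0.154 and 0.21). The sperm gene *nspd-1* was at 0.83 at 10 days, a difference of -3.28 (adjusted p = 0.0941). The major sperm protein genes had a median change of 2.33 at 10 days, where limma called 0 of the 23 and 15 were at an unadjusted p under 0.05.

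**Figure D5:**
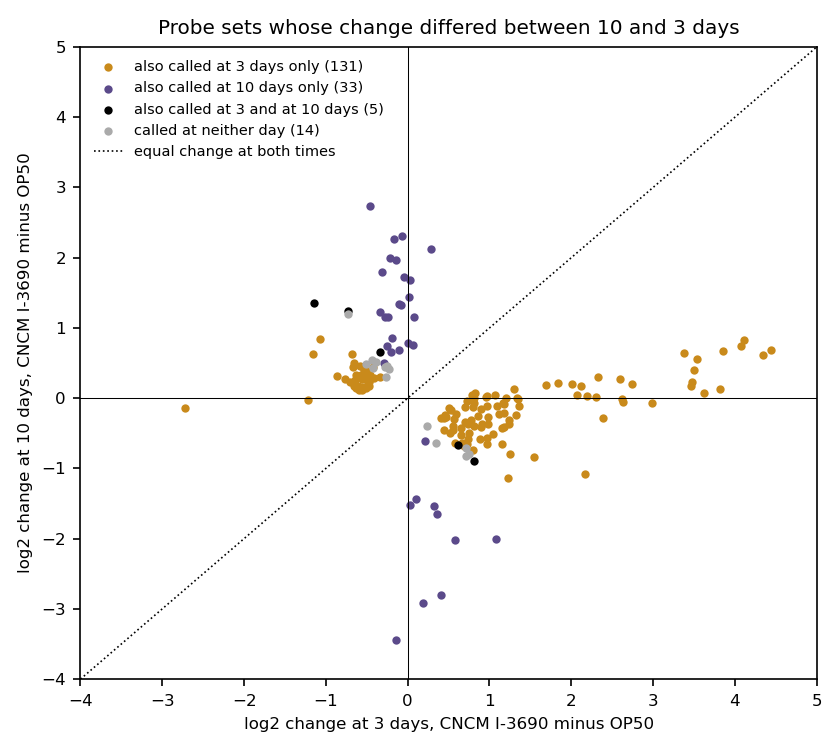
Change on CNCM I-3690 against OP50 at 10 days (vertical axis, log2) against that at 3 days (horizontal axis, log2) for the 183 probe sets whose changes differed between the times, 1 point each, coloured by the calls at each time. The dotted line marks equal change at both times. Most points (131) were called at 3 days only and mostly lie closer to 0 on the vertical than on the horizontal axis, and 5 were called at both times with opposite signs.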

How the data were processed

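Gene expression was measured in whole worms with the Affymetrix *C. elegans* Genome Array, 1 array per sample and 3 per group. The authors normalized the scans by robust multi-array averaging and deposited log2 values of 22625 probe sets, whose version of the tool is not given in the sources used here. These deposited log2 values were used as they are. The number of arrays limits the precision. Probe sets were named from the platform's annotation, which can be old, and 20766 had 1 symbol, 887 several and 972 none.

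limma 3.58.1 (R 4.3.3) was fitted to all 18 arrays with 6 group means, without the replicate number, and p-values were adjusted by Benjamini-Hochberg over all probe sets. Calls were made where that p was under 0.10, and counts at 0.05 and at the 0.01 of the study's methods are given below. Scripts were tested on simulated data. Genes to name were drawn from the 15 largest rises and falls without overlap of the groups (with and without sperm genes). Further sources were up to 6 called members of each list and all members of lists of up to 15. The last were genes the study named between the strains and the 10 strongest differences between times. Not all genes so drawn are named in the text. In lists 1 probe set, the brightest, stood for a gene, and 1 listed gene is not reported here. The members, lists and tests were chosen with earlier results of these data known. Arrays were then left out one by one, and scaling, filter, fit and threshold were varied. The methods name 4 biological replicates and the series has 3 arrays per group.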

Additional observations from a re-analysis of the deposited data

Results flagged for a closer look

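The following probe sets were among the 10 with the lowest p for the difference between the change on CNCM I-3690 at 10 days and that at 3 days, and all passed it in limma. *cyp-35C1*, a cytochrome P450, differed by 2.50 and 1.97 in its 2 probe sets (adjusted p = 0.000201 and 0.00153), with opposite signs at the 2 times. *ugt-23*, a UDP-glucuronosyltransferase, differed by -1.29 (adjusted p = 0.00307), also with opposite signs.

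The others were not called at 3 days. *cyp-35A3*, another cytochrome P450, was at -0.15 at 3 days and 1.97 at 10 days, a difference of 2.12 (adjusted p = 0.00153). *H25K10.4* was at -0.07 and 2.31, a difference of 2.38 (adjusted p = 0.000235), and *F08D12.3* at 0.07 and 1.15, a difference of 1.08 (adjusted p = 0.00438). *C14C6.5* differed by -3.21 and -3.1 in its 2 probe sets (adjusted p = 0.000586 and 0.00307). *ilys-2*, an invertebrate-type lysozyme, averaged 1.30 ± 0.28 on CNCM I-3690 and 4.75 ± 0.37 on OP50 at 10 days (SD, n = 3 each), while at 3 days it lay below 1.32 on all 6 arrays, a difference of -3.30 (limma, adjusted p = 0.00438).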

How the results depend on the processing

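Of 129 genes named above with a call, 0 changed direction under any alternative, and of 2001 pairs of such a gene and an alternative 1440 kept the call. Genes not named above did change direction. With the mean of the sperm proteins as a term *msp-38* was at -0.76, against 4.11 without it. The median of the 23 major sperm protein genes was then -0.56, against 3.94. Leaving out 1 array at a time, 236 to 2812 probe sets were called, 208 to 1419 higher and 28 to 1393 lower, and 25 to 1119 differed between the times. At an adjusted p under 0.05 limma called 695 (514 higher, 181 lower) and 42 between the times, and under 0.01 160 (151 higher, 9 lower) and 14. Falls were called less often in the fit to the 9 arrays of 3 days (268), in the fit to the 6 arrays compared (331) and after cyclic loess (191). Without probe sets that carry a suffix letter, which leaves fewer to test, 664 were called (442 higher, 222 lower). With the mean of the sperm proteins as a term 0 were called, 0 higher and 0 lower. With the replicate number as a block (replicate block) 1629 were called (984 higher, 645 lower) and 405 differed between the times. Deviations of same-numbered arrays correlated at 0.10, 0.05 and 0.16, and those of arrays with unlike numbers at -0.16 to 0.07. These values do not settle whether the numbers pair the arrays, and the main fit left the numbers out. The cause of these shifts was not tested. Values near 1.32 or below carry little signal over background and limit what can be seen of low genes.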
